A study of Mus musculus with 6 samples.

Results

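The major histocompatibility complex (MHC) and antigen presentation genes of gastrocnemius/plantaris (GP) muscle were examined in 6 bulk RNA-Seq libraries, 3 labelled Ctrl and 3 labelled cKO. The genes were taken by symbol from the deposited counts: every symbol beginning with H2-, and B2m, Tap1, Tap2, Tapbp, Tapbpl, Cd74, Ciita, Nlrc5, Erap1 and Cd1d1. They numbered 53 of the 24421 genes listed, of which 40 belong to class I, 12 to class II and 1, H2-Ke6, is a hydroxysteroid dehydrogenase gene that carries an H2- symbol only because it lies in the MHC region. All mice were males, labelled as of B6C3F1 background, were homozygous for a Net39 allele with loxP sites around exon 1, received tamoxifen and were 5 months old, 3 months after tamoxifen. The labels give the Ctrl mice as Net39 fl/fl without Cre and the cKO mice as HSACreERT2;Net39 fl/fl, in which Cre is driven by the human skeletal actin promoter and is active in muscle fibres but not in satellite cells.

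MHC class I molecules are made by nearly all nucleated cells and show peptides of proteins made inside the cell to CD8 T cells. A heavy chain pairs with B2m, the TAP transporter brings peptides into the endoplasmic reticulum, tapasin helps to load them, and NLRC5 is the transcriptional coactivator of the class I genes. MHC class II molecules are made mainly by professional antigen-presenting cells (dendritic cells, macrophages and B cells), show peptides of engulfed proteins to CD4 T cells, are escorted by the invariant chain CD74 and depend on the coactivator CIITA. Resting muscle fibres have little class I on their surface, which is known to increase in inflammatory muscle disease, and class II in muscle is mostly found on resident immune cells.

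Net39, the targeted gene, is listed as Ppapdc3 and goes against the labels. It had 310, 321 and 217 counts in the Ctrl-labelled libraries 1, 2 and 3 and 5365, 4340 and 6080 counts in the cKO-labelled ones 1, 2 and 3. Groups are therefore called by their labels throughout, and log2 fold changes set the cKO label over the Ctrl label, so that a negative value means a higher level in the Ctrl-labelled libraries, which have the low Net39 counts. Total counts per library were 33860001 to 38201728 in the Ctrl-labelled libraries and 39191239 to 48839910 in the cKO-labelled ones. The MHC and antigen presentation genes took 0.0590% to 0.106% of all counts in the Ctrl-labelled libraries and 0.0349% to 0.0496% in the cKO-labelled ones.

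The promoters of class I and class II genes share a short element, the Y box, which is bound by the factor NF-Y next to the site at which NLRC5 or CIITA is recruited. The following 210 bases around the RefSeq start sites (GRCm38.p6) are shown for class II genes, whose levels differed most between the groups, and for 3 abundant class I genes, so that the elements of both classes can be compared. The regions are chr17:34287804-34288013 (minus strand) for H2-Aa, chr17:34305677-34305886 (plus) for H2-Eb1, chr17:34153001-34153210 (plus) for H2-DMb1, chr17:34000328-34000537 (minus) for H2-K1, chr17:35262904-35263113 (plus) for H2-D1 and chr2:122147497-122147706 (plus) for B2m. Capitals mark the Y box core GATTGG or its reverse complement CCAATC, and GGGATTCCC, a kappaB site in enhancer A of the class I heavy chain genes.
H2-Aa: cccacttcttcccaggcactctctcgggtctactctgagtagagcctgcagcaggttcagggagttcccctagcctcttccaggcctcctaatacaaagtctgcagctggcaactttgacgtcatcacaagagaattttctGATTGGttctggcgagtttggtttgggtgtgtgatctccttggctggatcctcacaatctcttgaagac
H2-Eb1: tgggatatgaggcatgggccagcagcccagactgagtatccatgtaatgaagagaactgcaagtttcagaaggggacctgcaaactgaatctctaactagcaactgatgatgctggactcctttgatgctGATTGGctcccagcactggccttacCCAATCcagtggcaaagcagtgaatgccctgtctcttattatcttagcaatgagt
H2-DMb1: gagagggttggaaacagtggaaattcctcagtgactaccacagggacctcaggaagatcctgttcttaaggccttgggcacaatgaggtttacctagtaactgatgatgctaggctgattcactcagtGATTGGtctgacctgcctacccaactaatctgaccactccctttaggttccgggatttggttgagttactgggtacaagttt
H2-K1: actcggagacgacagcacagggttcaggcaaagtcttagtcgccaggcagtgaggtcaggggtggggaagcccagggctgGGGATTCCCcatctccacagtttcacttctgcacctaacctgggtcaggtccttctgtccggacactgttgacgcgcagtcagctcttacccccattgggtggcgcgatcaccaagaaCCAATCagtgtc
H2-D1: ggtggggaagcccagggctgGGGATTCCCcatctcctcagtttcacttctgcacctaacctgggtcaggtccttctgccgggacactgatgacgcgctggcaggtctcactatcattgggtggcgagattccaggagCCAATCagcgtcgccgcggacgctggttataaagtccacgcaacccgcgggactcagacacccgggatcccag
B2m: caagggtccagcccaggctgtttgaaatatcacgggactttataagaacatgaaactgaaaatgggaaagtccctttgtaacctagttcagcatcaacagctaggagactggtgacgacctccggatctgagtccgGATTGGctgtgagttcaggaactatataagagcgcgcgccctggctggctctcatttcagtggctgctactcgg

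Among the genes tested for a difference (below), 17 had a promoter window of 300 bases in the RefSeq table, 250 before the start site and 50 after it. Both strands were searched, and where a gene had several windows the first listed was used. GATTGG was present in 5 of the 6 class II windows (H2-Aa, H2-DMb1, H2-DMb2, H2-Eb1 and H2-Ob) and in 6 of the 10 class I windows (B2m, H2-D1, H2-K1, H2-Q4, H2-T23 and Tap1), and in 16.1% of all 32851 promoter windows. GGGATTCCC was present in H2-K1 and H2-D1, in no other of these class I and class II windows and in 0.353% of all windows. The Y box core began 49 bases before the start site in H2-Aa, 62 in H2-DMb1, 53 in H2-D1 and 54 in B2m, whereas in H2-K1 it lay after the start site as listed. H2-Eb1 had a match to the core 60 bases before the start site and another 35 bases before it. TGACG, the core of the cyclic AMP response element to which the X2 box is related, was found in 6 class I windows and 1 class II window (H2-Aa), and in 20.8% of all windows. AAANNGAAA, the core of an interferon response element, was found in B2m, Erap1 and H2-T23, and in 10.6% of all windows. No motif contains another, although matches may overlap, and a match describes these letters only.

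Of the 53 genes, 13 had no count in any library, 12 had counts that were too low for a test and 28 passed edgeR's expression filter: 18 of class I, 9 of class II and H2-Ke6. A count of 0 allows up to 3 counts per library, and the limit covers counting error only. The genes with no count were H2-Q2, H2-Q6, H2-Q7, H2-Q8, H2-Q9, H2-T9, H2-T22, H2-M1, H2-M10.1, H2-M10.3, H2-M10.4, H2-M10.5 and H2-M10.6. Some of these share sequence with other genes: 18.5% of the 75-base words of H2-T22 transcripts, 17.9% of H2-Q6 and 17.0% of H2-Q7 also occur in transcripts of other genes (GENCODE M21). The share was 8.07% for H2-Q2 and, for the H2-M genes among them, from 0% (H2-M1 and H2-M10.1) to 4.05% (H2-M10.5). It was 3.10% for H2-K1 and 0% for H2-Aa, H2-Ab1 and H2-Eb1. How reads that match several places were counted is not given in the sources used here, so counts of the H2-Q and H2-T genes are uncertain, and a listed 0 does not show that a gene is silent. The genes with few counts had at most 11 counts in a library and were H2-L, H2-Q1, H2-Bl, H2-T3, H2-M2, H2-M5, H2-M9, H2-M10.2 and H2-M11 of class I and H2-Oa, H2-Eb2 and H2-Ea-ps of class II. H2-Ea-ps had 1 count in the library labelled Ctrl 1 and 0 in the other 5. This gene encodes the E alpha chain in mice of the H2-k haplotype, which C3H mice carry, and is a promoter-deleted pseudogene in the H2-b haplotype of C57BL/6, the strain of the reference genome. B6C3F1 joins both haplotypes, but by the methods the injected zygotes came from B6C3F1 parents and the founders were crossed to C57BL/6N mice and then to the Cre line, and the haplotype of each mouse is not given. All H2 values are counts against the C57BL/6 reference, to which reads of other alleles may align less well, and its part in the levels and differences of the class I and class II genes was not tested.

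Class II genes were higher in the Ctrl-labelled libraries. In whole muscle, fewer cells of a type and less RNA per cell cannot be told apart. All 9 class II genes tested had their 3 values in the Ctrl-labelled libraries above the 3 in the cKO-labelled ones, a separation in that direction found in 21.9% of all 14180 genes tested and, for class I, in 5 of 18. With adjusted p-values under 0.05 (quasi-likelihood test of edgeR, Benjamini-Hochberg over all genes tested), 7 of the 9 class II genes and 2 of the 18 class I genes were higher in the Ctrl-labelled libraries, where the background over all genes tested was 11.8%. With a fold change over 2 as well, 6 class II genes and 0 class I genes were higher there (background 3.92%). DESeq2's Wald test called 1 class I gene at these limits, Tap1, and 6 of the 18 class I genes (33.3%) had an unadjusted p under 0.05 in edgeR, against 38.8% of all genes tested. The class I genes at an adjusted p under 0.05 numbered 5 in DESeq2's test, 7 with total counts as the scaling and 4 with mouse number as a block. Class II genes numbered 7, 9 and 5 in the same order, and all genes 3924, 4747 and 1899 (3454 in the main fit). None of the 28 genes was higher in the cKO-labelled libraries in any of these ways (0 genes by either limit and 0 without overlap), where the backgrounds were 12.6% at an adjusted p under 0.05, 2.13% with the fold change and 22.0% without overlap. In DESeq2's test 0 were higher there too, and without the library labelled Ctrl 3 there was 1, Erap1. The median log2 fold change was -1.15 for class II (range -1.81 to -0.92), -0.53 for class I (range -1.37 to 0.27) and -0.02 for all genes tested. Without the library labelled Ctrl 3 the class I median was -0.24. H2-DMb2 passed the expression filter through the 3 libraries labelled Ctrl alone, so it could be tested only because it was higher there, and H2-Ob was over the filter's limit in those 3 and in 1 labelled cKO. Of the 7 class II genes over the limit in every library, 7 did not overlap, 6 had an adjusted p under 0.05, 5 were also past the fold change, and the median was -1.15 (range -1.33 to -0.99).

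**Figure D1:**
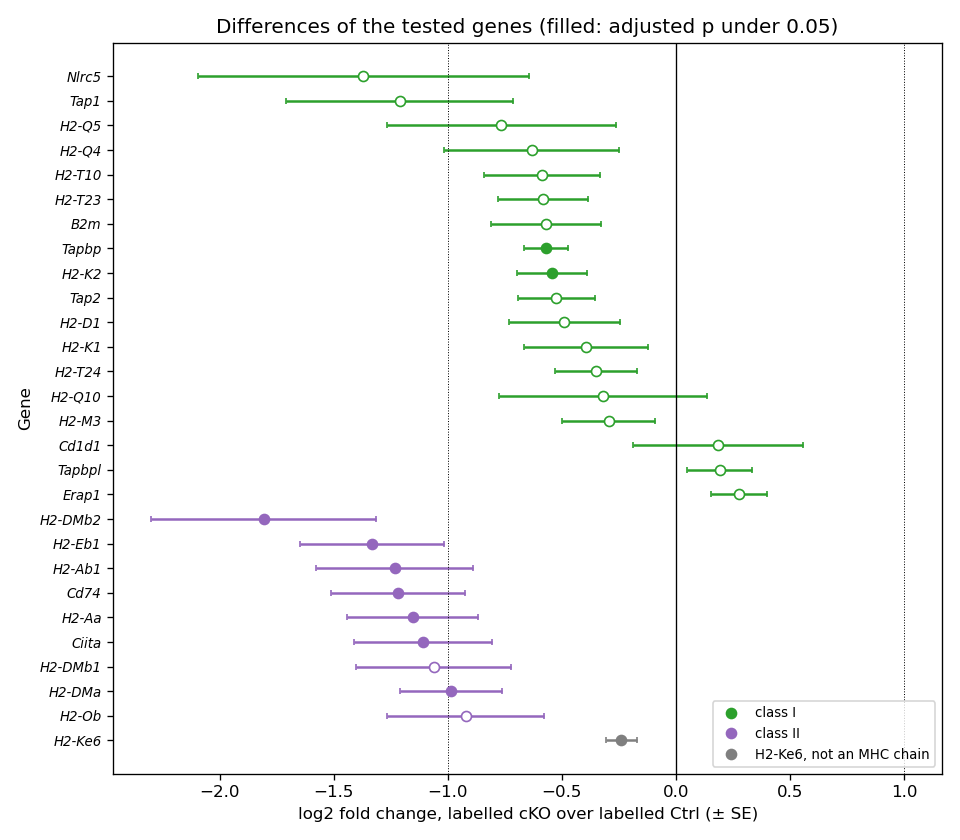
Log2 fold change with its standard error (x axis) of the 28 genes tested (y axis), class I in green, class II in violet and H2-Ke6 in grey; filled points have an adjusted p under 0.05 and dotted lines mark a fold change of 2. The 9 class II genes lie between -1.81 and -0.92, while the 18 class I genes run from -1.37 to 0.27 and only Tapbp and H2-K2 among them are filled.

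The classical class II chains changed together. H2-Ab1, the beta chain of the A molecule (chromosome 17, 34257689 to 34269419 in GENCODE M21, GRCm38), had 29.1, 24.7 and 53.6 CPM in the Ctrl-labelled libraries 1, 2 and 3 and 9.74, 17.1 and 18.8 CPM in the cKO-labelled ones 1, 2 and 3. CPM is the count scaled to the library total and by edgeR's TMM factors. The library labelled Ctrl 3 was the highest and cKO 1 the lowest. The log2 fold change was -1.23 ± 0.34 (SE, adjusted p = 0.0398, edgeR). H2-Aa, the alpha chain that pairs with it (34282744 to 34287823), had 28.7, 27.0 and 51.5 CPM in the Ctrl-labelled libraries and 11.9, 16.6 and 19.6 CPM in the cKO-labelled ones. The log2 fold change of H2-Aa was -1.15 ± 0.29 (SE, adjusted p = 0.0273). An exact two-sided permutation test of log2 CPM gave 0.1 for each of these chains, the smallest p that 3 libraries against 3 allow. H2-Eb1, the beta chain of the E molecule (34305867 to 34316674), had 26.9, 24.8 and 48.9 CPM against 8.83, 15.3 and 15.8 CPM, and a log2 fold change of -1.33 ± 0.32 (SE, adjusted p = 0.0243). Again Ctrl 3 was highest and cKO 1 lowest. The ratios between the chains varied little: H2-Eb1 was 0.839 to 1.00 times H2-Ab1 in counts across the 6 libraries, and H2-Aa was 0.961 to 1.22 times H2-Ab1.

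Cd74, the invariant chain that blocks the peptide groove until the class II molecule reaches the endosome, was the most abundant class II gene per kilobase of exon. It lies outside the MHC, and had 78.7, 64.8 and 131 CPM in the Ctrl-labelled libraries and 27.9, 42.8 and 47.1 CPM in the cKO-labelled ones. For Cd74 the log2 fold change was -1.22 ± 0.29 (SE, adjusted p = 0.0254), and its counts were 2.44 to 2.87 times those of H2-Ab1 in each of the 6 libraries. Ciita, the class II coactivator on chromosome 16 (10480059 to 10528418), had 2.43, 2.15 and 4.32 CPM against 1.19, 1.58 and 1.34 CPM. Ciita was thus higher in the Ctrl-labelled libraries (log2 fold change -1.11 ± 0.30 SE, adjusted p = 0.0370 from edgeR). Exons of Ciita share 329 bases with Dexi.

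The non-classical class II genes edit and restrain peptide loading: H2-DM removes the CD74 fragment from the groove, and H2-O inhibits H2-DM. H2-DMa had 3.60, 3.26 and 5.28 CPM in the Ctrl-labelled libraries and 1.86, 1.92 and 2.32 CPM in the cKO-labelled ones. Its log2 fold change of -0.99 ± 0.22 (SE) passed on the adjusted p (0.0209) but not the fold change of 2. H2-DMb1 had 3.04, 1.86 and 4.24 CPM against 1.07, 1.43 and 1.84 CPM, so that Ctrl 2 and cKO 3 nearly met, and its log2 fold change of -1.06 ± 0.34 (SE) did not pass (adjusted p = 0.0599). H2-DMb2, a second beta chain gene, had 10, 12 and 17 counts against 2, 6 and 3 counts. H2-DMb2 passed in edgeR (log2 fold change -1.81 ± 0.49 SE, adjusted p = 0.0370), but it shares 14.6% of its 75-base words with H2-DMb1, so reads of the pair cannot be fully told apart. It did not pass in DESeq2's Wald test (adjusted p = 0.0654) or without the low-count filter (adjusted p = 0.0525 in edgeR). H2-Ob, the beta chain of H2-O, had 19, 19 and 26 counts against 8, 15 and 11 counts, a log2 fold change of -0.92 ± 0.34 (SE, adjusted p = 0.0920).

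**Figure D2:**
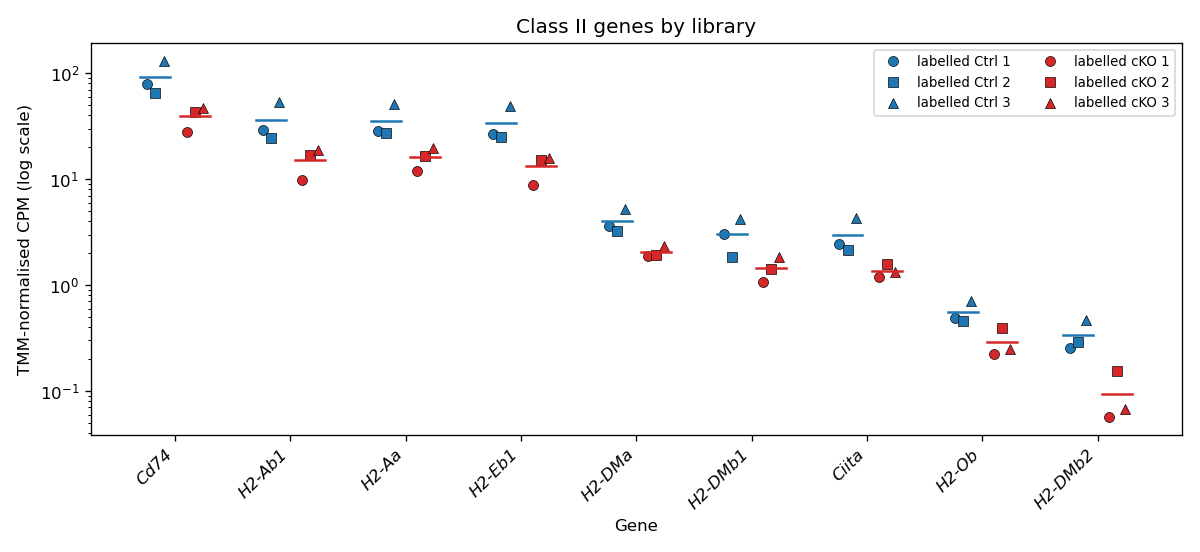
TMM-normalised CPM on a log scale (y axis) of the 9 class II genes tested (x axis) in each library labelled Ctrl (blue) and cKO (red), with a bar at the group mean and 1 symbol shape per mouse number. In each gene the 3 blue points lie above the 3 red points, the library labelled Ctrl 3 is the highest of the 6 and cKO 1 is the lowest.

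Single libraries weighed on the class II calls. The library labelled Ctrl 3 was highest and cKO 1 lowest in 9 of 9 class II genes, while over all 14180 genes tested cKO 1 was lowest in 2770. Without the library labelled Ctrl 3 the median log2 fold change of class II was -0.79 in place of -1.15, 4 genes had an adjusted p under 0.05 (Cd74, H2-Aa, H2-DMa and H2-Eb1) and 0 also had a fold change over 2. With cKO 1 left out the class II median was -1.01 and 0 class II genes passed, with adjusted p from edgeR of 0.0631 for H2-Eb1 and 0.0808 for H2-Aa. Without Ctrl 1 and without cKO 3, 2 class II genes each passed (H2-Aa and H2-Eb1, and H2-Aa and H2-DMa). Over all genes tested, 3454 had an adjusted p under 0.05 with all libraries and 3232 without Ctrl 3. The count over all genes fell further without cKO 1 (1789), Ctrl 1 (1575) and cKO 3 (1560). With the fold change as well, 858 genes were called over all genes with all libraries and 921 without Ctrl 3. Without Ctrl 3 the log2 fold change was -0.82 for H2-Ab1 and -0.73 for Ciita. H2-Ab1 and H2-DMb2 each passed in 1 of the 6 fits, and Ciita in 2. Each of the 9 log2 fold changes was negative in each fit that left out a library.

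**Figure D3:**
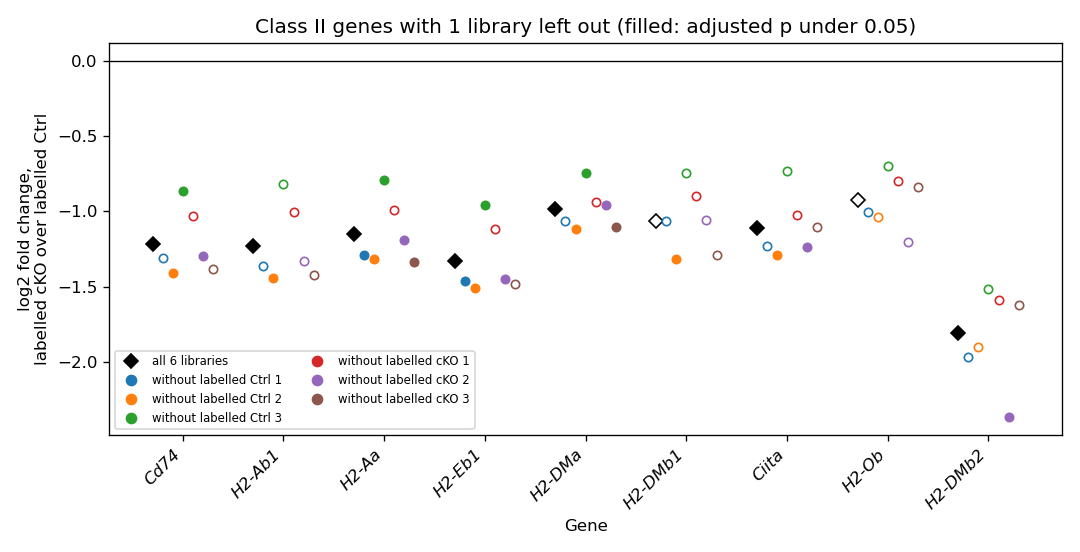
Log2 fold change (y axis) of the 9 class II genes (x axis) with all 6 libraries (black diamonds) and with each library left out in turn (coloured circles); filled symbols have an adjusted p under 0.05. Every symbol lies below 0, the values without the library labelled Ctrl 3 (green) are nearest to 0 in each gene, and no circle for the fit without cKO 1 (red) is filled.

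Of the 11 class I heavy chains tested, 3 (27.3%) had every Ctrl-labelled library above every cKO-labelled one, H2-K2, H2-T24 and H2-T10, against 21.9% of all genes, and 1 had an adjusted p under 0.05, H2-K2. H2-K1, one of the classical heavy chains and the most abundant (chromosome 17, 33996017 to 34000347), had 104, 82.9 and 172 CPM in the Ctrl-labelled libraries and 76.1, 85.8 and 111 CPM in the cKO-labelled ones. Ctrl 3 was highest, and the other libraries labelled Ctrl lay within the range of the cKO libraries. Its log2 fold change of -0.39 ± 0.27 (SE) did not pass (adjusted p = 0.322), and was -0.04 without Ctrl 3. H2-D1, the other classical heavy chain (35262730 to 35267499), had 39.5, 29.0 and 54.3 CPM against 24.4, 26.4 and 36.5 CPM (log2 fold change -0.49 ± 0.24 SE, adjusted p = 0.183, and -0.23 without Ctrl 3). H2-D1 had 0.308 to 0.379 times the counts of H2-K1 in the 6 libraries. H2-K2, annotated in GENCODE M21 as a transcribed pseudogene, had 164, 149 and 169 counts in the Ctrl-labelled libraries and 94, 113 and 128 counts in the cKO-labelled ones. Its values did not overlap (log2 fold change -0.54 ± 0.15 SE, adjusted p = 0.0400), but the call was lost in each of the 6 fits that left out a library. H2-Ke6 behaved likewise: it had 45.2, 48.5 and 47.8 CPM against 41.3, 39.7 and 38.9 CPM (log2 fold change -0.24 ± 0.07 SE, adjusted p = 0.0397), lost its call in each of those 6 fits, and shares 65.5% of its 75-base words with the overlapping gene Gm20427.

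Non-classical heavy chains have restricted roles, such as the Qa-1 molecule encoded by H2-T23, which binds receptors of natural killer cells. H2-T23 had 18.0, 15.4 and 24.0 CPM in the Ctrl-labelled libraries and 11.1, 11.5 and 15.6 CPM in the cKO-labelled ones, where cKO 3 just exceeded Ctrl 2. Its log2 fold change was -0.58 ± 0.20 (SE, adjusted p = 0.0707). H2-Q4 had 25.6, 18.1 and 46.0 CPM against 15.4, 14.4 and 27.9 CPM, so that cKO 3 exceeded Ctrl 1 and Ctrl 2 (log2 fold change -0.63 ± 0.38 SE, adjusted p = 0.262, and -0.18 without Ctrl 3). H2-M3, which presents N-formylated peptides of bacteria and mitochondria, had 2.04 to 2.73 CPM against 1.61 to 2.27 CPM and a log2 fold change of -0.30 (adjusted p = 0.325 from edgeR). H2-T24 had 3.45, 3.47 and 4.05 CPM against 3.05, 2.29 and 3.25 CPM, H2-T10 1.17, 1.11 and 1.31 CPM against 0.734, 0.623 and 1.02 CPM, and H2-Q5 1.56, 1.18 and 3.45 CPM against 0.875, 0.779 and 1.93 CPM. Only H2-Q5 of these overlapped between the groups. With H2-Q10, at 30 or fewer counts per library, they had log2 fold changes between -0.77 and -0.32 that did not pass. Without Ctrl 3 the log2 fold change was -0.18 for H2-Q5, -0.17 for H2-M3, -0.38 for H2-T23 and 0.44 for Cd1d1. Cd1d1, which presents lipids to natural killer T cells and lies on chromosome 3, had 1.86, 1.30 and 2.52 CPM against 2.06, 3.12 and 1.27 CPM, a difference of 0.18 with a standard error of 0.37. Its sign changed with total counts as the scaling, and it shares 14.2% of its 75-base words with Cd1d2.

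Among the partners of class I, tapasin showed the steadiest difference. B2m, the light chain of every class I molecule (chromosome 2, 122147686 to 122153083), had 125, 87.1 and 170 CPM in the Ctrl-labelled libraries and 74.7, 79.6 and 103 CPM in the cKO-labelled ones. The groups overlapped, since cKO 3 exceeded Ctrl 2, and the log2 fold change of -0.57 ± 0.24 (SE) did not pass (adjusted p = 0.127) and was -0.31 without Ctrl 3. Tapbp, which encodes tapasin (chromosome 17, 33915899 to 33929292), had 55.0, 52.2 and 63.9 CPM against 36.4, 38.1 and 40.7 CPM. It was higher in the Ctrl-labelled libraries (log2 fold change -0.57 ± 0.10 SE, adjusted p = 0.00808), and passed in each of the 6 fits that left out a library, with log2 fold changes from -0.63 to -0.48. The exons of Tapbp share 1053 bases with Zbtb22 and Gm19412, and whether counting used strand is not given in the sources used here. Tapbpl, the tapasin-related protein TAPBPR, had 4.17 to 5.63 CPM against 5.45 to 5.66 CPM, a log2 fold change of 0.19 ± 0.14 (SE, adjusted p = 0.356) that was -0.06 with total counts and 0.31 without Ctrl 3. Erap1, which trims peptides in the endoplasmic reticulum, had 16.5, 18.0 and 22.4 CPM in the Ctrl-labelled libraries and 22.4, 22.3 and 24.0 CPM in the cKO-labelled ones. Its log2 fold change was 0.27 ± 0.12 (SE, adjusted p = 0.145), and without Ctrl 3 it was 0.41 and passed (adjusted p = 0.0236 from edgeR). Its exons share 834 bases with Cast.

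Tap1 and Nlrc5 showed how far the library labelled Ctrl 3 stood from the others. Tap1, 1 of the 2 subunits of the peptide transporter, had 6.56, 4.97 and 19.4 CPM in the Ctrl-labelled libraries and 4.15, 3.71 and 5.45 CPM in the cKO-labelled ones. Its log2 fold change was -1.21 ± 0.50 (SE, adjusted p = 0.119), and -0.37 without Ctrl 3. Tap2, the other subunit, had 20.5, 19.6 and 28.3 CPM against 15.7, 13.8 and 18.0 CPM, with no overlap between the groups (log2 fold change -0.52 ± 0.17 SE, adjusted p = 0.0588, and -0.34 without Ctrl 3). The exons of Tap1 share 212 bases with Psmb9. Tap1 counts were 0.688 times those of Tap2 in Ctrl 3 and 0.254 to 0.321 times in the other 5 libraries. Nlrc5, on chromosome 8, had 3.40, 1.21 and 11.4 CPM against 1.41, 2.05 and 2.66 CPM. Its highest and lowest values among the libraries labelled Ctrl differed 9.43-fold, its log2 fold change was -1.37 ± 0.73 (SE, adjusted p = 0.207), and without Ctrl 3 it was -0.16.

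**Figure D4:**
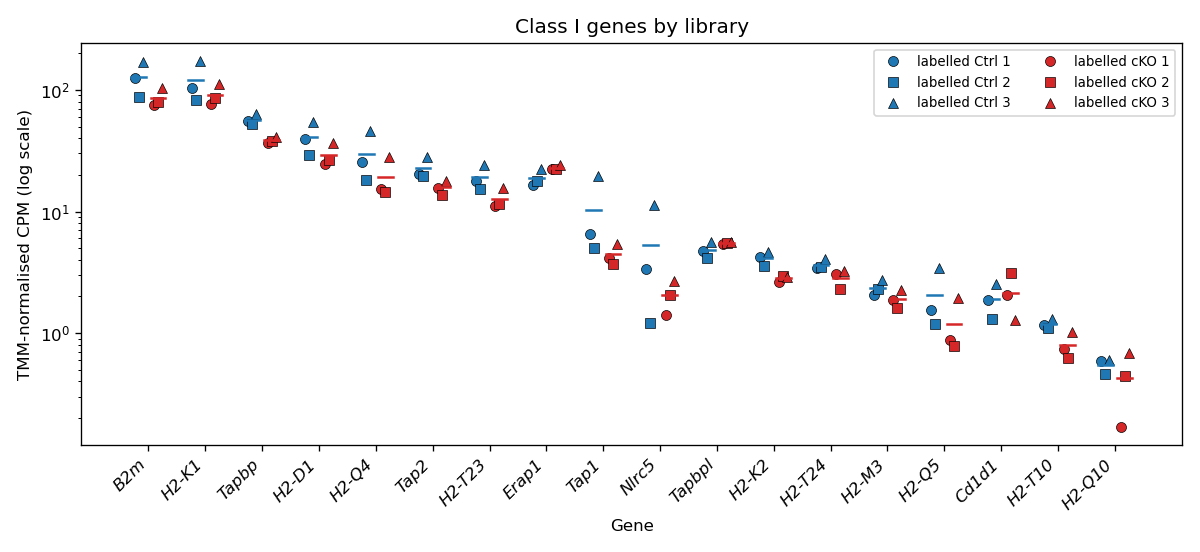
TMM-normalised CPM on a log scale (y axis) of the 18 class I genes tested (x axis) in each library labelled Ctrl (blue) and cKO (red), with a bar at the group mean and 1 symbol shape per mouse number. The groups overlap in 13 of the 18 genes, and the blue triangle, the library labelled Ctrl 3, is the highest of the 6 libraries in 14 of them, farthest from the others in Tap1 (19.4 CPM) and Nlrc5 (11.4 CPM).

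The library labelled Ctrl 3 was the highest of the 6 in 23 of the 28 genes, and in 2732 of all 14180 genes tested. Over the mean of Ctrl 1 and Ctrl 2 it had 4.94 times the Nlrc5 level, 3.37 times Tap1, 2.52 times H2-Q5, 2.11 times H2-Q4 and 1.84 times H2-K1, with medians of 1.43 for class I, 1.82 for class II and 1.01 for all genes tested. Genes induced by interferon gamma outside the list were also high there: Cd274 at 4.66 times, Psmb9 at 2.38 times, Psmb8 at 2.11 times and Irf1 at 2.07 times. These genes were named after the values were seen. Ifng, the interferon gamma gene itself, had 0 counts in 5 libraries, Ctrl 3 among them, and 3 counts in the library labelled cKO 2.

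Per kilobase of annotated exon, B2m stood at the top in both groups, at 148 and 99.9 mean CPM per kilobase in the Ctrl-labelled and the cKO-labelled libraries. Cd74 followed at 54.5 in the Ctrl-labelled libraries, before H2-K1 at 40.7, whereas in the cKO-labelled ones H2-K1 at 31.0 lay above Cd74 at 23.4. H2-Eb1 (17.3), H2-D1 (15.9), Tapbp (15.7), H2-Ab1 (13.9), H2-Q4 (11.5) and H2-Aa (9.41) came next in the Ctrl-labelled libraries, and these neighbours lay within the spread between mice. In those labelled cKO the class II chains lay at 6.84 (H2-Eb1), 5.92 (H2-Ab1) and 4.22 (H2-Aa), below H2-D1 (11.3) and Tapbp (10.6). H2-Ke6, the dehydrogenase gene, was at 28.7 and 24.3. Ciita was at 0.311 and 0.144 and Nlrc5 at 0.627 and 0.240, below the classical chains of their classes, while H2-DMb2 and H2-Ob lay below Ciita and H2-T10 and H2-Q10 below Nlrc5. Summed counts of H2-Aa, H2-Ab1 and H2-Eb1 were 0.590, 0.683 and 0.680 times those of H2-K1 and H2-D1 in the Ctrl-labelled libraries and 0.303, 0.436 and 0.367 times in the cKO-labelled ones, with no overlap between the groups.

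Leukocyte and macrophage markers summed to higher levels in the Ctrl-labelled libraries, as class II genes did. Over all genes tested, 11.8% were higher in the Ctrl-labelled libraries at an adjusted p under 0.05 and 21.9% were higher there without overlap. All 4 leukocyte markers had negative log2 fold changes, with a median of -0.76, and 1 passed an adjusted p of 0.05. Their summed level was 22.9 to 33.4 CPM in the Ctrl-labelled libraries and 12.4 to 19.0 CPM in the cKO-labelled ones. Of 12 macrophage markers, 12 were higher in every library labelled Ctrl than in any labelled cKO, 9 passed an adjusted p of 0.05, the median was -0.96 and the summed level 228 to 253 CPM against 108 to 144 CPM. Dendritic cell markers were mixed: of 7 tested among 9 listed, 2 passed and were higher in the Ctrl-labelled libraries (Cd209a and Itgax), Zbtb46 (0.05) and Siglech (0.06) had positive log2 fold changes, and Clec9a and Batf3 overlapped between the groups. Their median was -0.86 and their summed level 12.1 to 16.7 CPM against 9.76 to 11.0 CPM. B cell markers summed to 0.465 to 0.868 CPM against 0.295 to 0.480 CPM, with 1 of 5 high enough for a test. T and natural killer cell markers summed to 0.684 to 0.796 CPM against 0.341 to 0.909 CPM, and 0 of 9 passed the expression filter. Summed counts of the 3 class II chains were 3.33 to 4.61 times those of the leukocyte markers in the Ctrl-labelled libraries and 2.46 to 3.46 times in the cKO-labelled ones, and 0.325 to 0.609 times those of the macrophage markers against 0.282 to 0.410 times, so that both ratios overlapped between the groups. H2-K1 and H2-D1 were 4.88 to 6.78 times the leukocyte markers in the Ctrl-labelled libraries and 5.91 to 9.44 times in the cKO-labelled ones. The part of leukocyte content in the class II difference was not tested.

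Markers of other cells varied. Over all genes tested, 11.8% passed an adjusted p of 0.05 as higher in the Ctrl-labelled libraries and 12.6% as higher in the cKO-labelled ones. With a fold change over 2 as well, the first share was 3.92%. Endothelial markers, from cells that make class I, had a median of -0.13 (log2) and a summed level of 434 to 447 CPM against 392 to 421 CPM, with 1 of 7 passing. Fibroblast and progenitor markers had a median of -0.45 with 3 of 6 passing, all 3 higher in the Ctrl-labelled libraries (Ly6a -1.13, Col3a1 -1.06 and Lum -0.72, the first 2 past the fold change), and summed to 1034 to 1236 CPM against 675 to 1221 CPM. Satellite cell markers had 0 of 4 passing (0 at an unadjusted p under 0.05) and a median of 0.21. Muscle fibre markers summed to 123094 to 144368 CPM in the Ctrl-labelled libraries and 188999 to 235888 CPM in the cKO-labelled ones. They went both ways, with 7 positive and 4 negative log2 fold changes. As higher in the cKO-labelled libraries 5 of 11 passed (Ckm, Pvalb, Myh4, Tnnt3 and Atp2a1), and 2 passed as higher in the Ctrl-labelled ones (Myh1 -0.93 and Myh2 -1.23). Myh4 weighed most on the sum, with means of 25521 CPM in the Ctrl-labelled libraries and 70116 CPM in the cKO-labelled ones. The part of these differences in fibre markers in the results above was not tested.

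**Figure D5:**
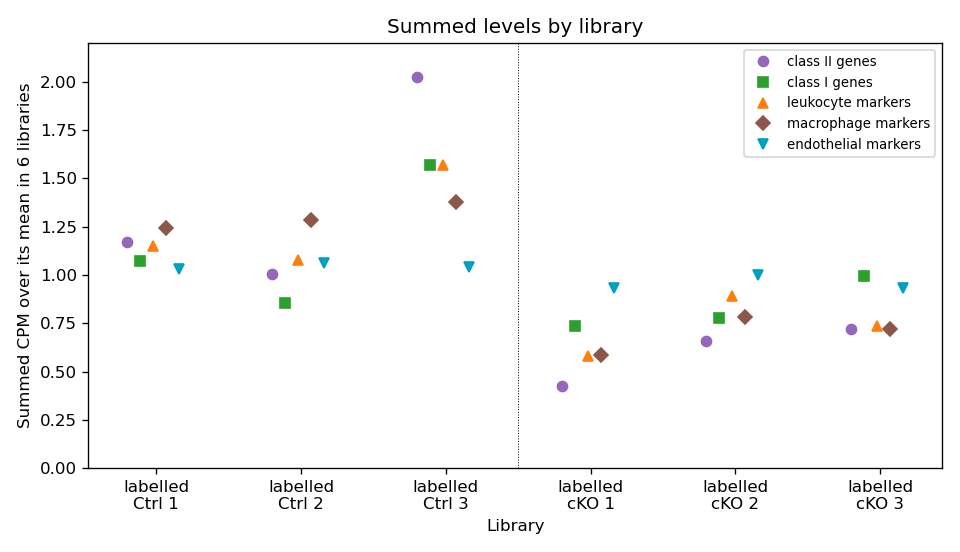
Summed CPM of each gene list divided by its mean over the 6 libraries (y axis, starting at 0) in each library (x axis). The class II sum (violet circles) is highest in the library labelled Ctrl 3, at 299.8 CPM, and lowest in cKO 1, at 62.8 CPM; the leukocyte and macrophage markers are likewise higher in the 3 libraries labelled Ctrl, and the endothelial markers stay near 1.

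The other genes of the presentation pathways were read from 5 lists. Of the 44 that were tested, 11 (25.0%) were higher in the Ctrl-labelled libraries at an adjusted p under 0.05, where the background was 11.8%. In the other direction 7 (15.9%) passed, near the background of 12.6%. With both limits 1 gene passed as higher in the Ctrl-labelled libraries, the class II protease gene Ctss (background 3.92%). Ctss, which cuts the CD74 fragment, had 9.14, 8.66 and 11.9 CPM in the Ctrl-labelled libraries and 3.47, 5.27 and 5.59 CPM in the cKO-labelled ones (log2 fold change -1.05 ± 0.21 SE, adjusted p = 0.0141). Of 10 genes of endosomal processing, 3 were higher in the Ctrl-labelled libraries (Ctss, Ctsl and Lgmn) and 1 in the cKO-labelled ones, Ctsd. None of the 5 immunoproteasome and activator genes passed in edgeR (0 genes, 2 at an unadjusted p under 0.05), with a median of -0.46. Of 10 genes of peptide supply and endoplasmic reticulum chaperones, 6 were higher in the Ctrl-labelled libraries, among them the class I chaperone genes Canx and Pdia3, and 2 in the cKO-labelled ones, Sec61b and Sppl2a. Sppl2a stands on this list but encodes the endosomal protease that degrades the last CD74 fragment, a class II step (log2 fold change 0.50 ± 0.10 SE, adjusted p = 0.0139). Of 15 genes of MHC transcription tested, 4 were higher in the cKO-labelled libraries: Nfyb and Nfyc, which encode subunits of the Y box factor NF-Y, Rfxap, a subunit of the X box factor RFX, and Ifngr2. Of 4 costimulation genes tested, 1 passed, Cd86, which was higher in the Ctrl-labelled libraries.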

How the data were processed

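Poly(A) RNA of GP muscle was sequenced from 6 mice, 3 labelled Ctrl and 3 labelled cKO. The authors deposited whole-number counts per gene, not normalized, for each library. Their processing notes name FastQC 0.11.8, Trimmomatic 0.39, HISAT2 2.1.0, featureCounts 1.6.2 and build mm10, and the annotation, the strand setting and the treatment of reads with several matches are not given in the sources used here. Counts were fitted with edgeR 4.0.16 (R 4.3.3, limma 3.58.1): TMM scaling, filterByExpr and the quasi-likelihood test over all 14180 genes that passed, with Benjamini-Hochberg adjustment. Genes were called at an adjusted p under 0.05, with and without a fold change over 2. The fit was first tested on simulated data. DESeq2 1.42.0, other scalings and filters, a replicate block, a robust fit and fits without each library were alternatives. Named genes were those at an adjusted p under 0.05 or with a mean of at least 1 CPM, with all others accounted for by count, and of other pathway genes those past both limits. Further genes of the pathway and marker lists were named after their values were seen. The gene set and lists were chosen with earlier results of these data known. Mouse numbers gave no sign of pairing over all genes: same-numbered libraries had correlations of deviations of 0.0848, -0.242 and -0.00992. These values cannot settle whether the mice were paired. Replicates differed by more than sampling noise (chi-square per degree of freedom 31.3 to 107). Positions and lengths came from GENCODE M21 and promoters from RefSeq. Single-nucleus data were not used here. Some genes of the pathway and marker lists, although counted in the totals, are not reported here by name.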

Additional observations from a re-analysis of the deposited data

How the results depend on the processing

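With each library left out in turn, the genes called over all genes numbered 580 to 1035, and those at an adjusted p under 0.05 in edgeR 1560 to 3585. Among the MHC and antigen presentation genes, 0 to 7 were called and 1 to 9 had an adjusted p under 0.05 (10 with all libraries), with 0 to 7 class II and 1 to 2 class I genes at an adjusted p under 0.05 and 0 to 7 class II genes called. Those called were 2 without the library labelled Ctrl 1, 0 without Ctrl 3, 0 without cKO 1 and 2 without cKO 3. Those at an adjusted p under 0.05 were 3, 6, 1 and 3 in the same order, and Tapbp was among them each time. The class II median ranged from -1.34 to -0.79, the latter without Ctrl 3.

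With total counts as the scaling the median over all genes (log2) moved from -0.02 to -0.27, the genes called from 556 higher in the libraries labelled Ctrl and 302 in those labelled cKO to 1023 and 157, and the MHC and antigen presentation genes at an adjusted p under 0.05 to 17, of which 7 were class I. The class I median was then -0.79 and the class II median -1.40, which is -0.52 and -1.13 relative to all genes. Class I genes at an adjusted p under 0.05 numbered 1 without a low-count filter and 5 in DESeq2's Wald test, which called 1 (Tap1). The sign changed for H2-Q10 (from -0.84 to 0.030 over the fits without 1 library, the latter without cKO 1), Cd1d1 (-0.055 with total counts, and -0.20 to 0.44 without 1 library, with -0.028 without Ctrl 2 and -0.20 without cKO 2) and Tapbpl (-0.062 with total counts), none of which passed. The cause was not tested. H2-DMb2, H2-Ob and H2-Q10 gave no value where at least 10 counts were required in every library.

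The labels number the mice alike in both groups. Over all genes the numbers gave no sign of pairing, which does not settle whether the mice were paired. With the number as a replicate block, 1899 genes in place of 3454 had an adjusted p under 0.05 in edgeR. Among the MHC and antigen presentation genes 9 passed in place of 10. These were 4 of class I in place of 2 and 5 of class II in place of 7. H2-Q4, H2-T23 and Tap2 then passed, and Ciita, H2-K2, H2-Ke6 and H2-DMb2 (adjusted p = 0.0820) were lost. The standard error fell from 0.38 to 0.12 for H2-Q4 and rose from 0.37 to 0.45 for Cd1d1. With 3 libraries a group, and no statement beyond separate mice, depth did not limit the abundant genes, whereas H2-DMb2, H2-Ob and H2-Q10 rest on 30 or fewer counts per library.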
